A study of Mus musculus with 43 samples.

Results

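The genes described here are the mitochondrial solute carriers of family SLC25, apart from the erythroid iron and heme carriers Slc25a37, Slc25a38 and Slc25a39. They were chosen by name: every protein-coding gene of the RefSeq table of GRCm38.p6 (the assembly behind mm10) whose symbol begins with Slc25a, with those 3 left out. This gave 44 genes of the 21521 protein-coding genes placed on chromosomes 1 to 19 and X. The study mapped the transcription factor EKLF (gene Klf1) in mouse fetal liver at embryonic day E13.5 by chromatin immunoprecipitation (ChIP) with the anti-EKLF antibody 7B2a, in 3 samples of wild-type littermates (Nan strain WT) and 3 of Nan/+ littermates, which carry a single copy of Nan, an allele of Klf1. Nan alters a zinc finger of EKLF, and Nan/+ embryos keep a normal copy of the gene. Whether the antibody tells the 2 forms of the protein apart is not given in the sources used here. The livers were dispersed whole, and the labels call the cells primary erythroid. The series holds 43 samples in 19 groups. Those with other antibodies, the ATAC samples and the inputs were not analysed here on their own.

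Each genotype had 1 list of EKLF regions, made by the authors from its 3 ChIP libraries together. The lists hold positions only, with no strength for a region and no value for a replicate. No spread between samples could therefore be computed, and no test between the genotypes was possible. Absence from a list does not show absence of binding, because the signal may fall short of that list's calling threshold. There were 9181 WT regions and 15564 Nan/+ regions. The WT ChIP libraries had 74140385 to 103170594 tags and the Nan/+ libraries 72023512 to 100763687, so that the depths overlapped. The lists were called with different settings, a peak size of 125 bp in WT and 175 bp in Nan/+, and 54.5% of the Nan/+ regions had that list's minimum width of 176 bp. The minimum width in WT was 126 bp, at 3.29% of regions. Widths are therefore compared only within a list. Marker genes of several cell types were counted to describe the lists, as EKLF regions cannot show which cells were present. All 9 erythroid markers, which include Klf1 itself, had regions in both lists. Of all protein-coding genes, 33.5% had one in WT and 37.5% in Nan/+. Of 6 hepatoblast markers 2 had one in each list, of 5 macrophage markers 1 in each, of 6 megakaryocyte markers 1 in WT and 4 in Nan/+, and of 4 endothelial markers 0 in WT and 1 in Nan/+. The hepatoblast share (33.3%) was thus near that of all genes, and the megakaryocyte share in Nan/+ (66.7%) above it.

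SLC25 proteins sit mostly in the inner mitochondrial membrane, where they carry metabolites, nucleotides, cofactors and ions between the cytosol and the matrix, often by exchanging one solute for another. Red cell precursors build heme partly inside mitochondria, and the 3 carriers left out serve that pathway or the glutathione that protects it. The carriers described here serve general metabolism: adenine nucleotide exchange, amino acid and dicarboxylate shuttles, fatty acid oxidation and cofactor supply. EKLF binds CACCC-type sequences through its zinc fingers and activates genes of the late erythroid program.

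A region was assigned to a gene when its centre lay in the gene body or its 10 kb flanks, and neighbouring genes can then hold the same region. A region was called shared when it overlapped a region of the other list by at least 1 bp. The promoter table of RefSeq (GRCm38.p6) matched 34 of the 44 carriers. Each promoter in it runs from 250 bases before the start to 50 bases after it. The start of 4 carriers lay under a region in both lists. Their promoters are shown because they are the carrier starts that both genotypes had in common. Capitals mark every match to CCNCNCCC, an EKLF-type CACCC letter pattern searched on both strands, and overlapping matches run together. Each sequence is written 5′ to 3′ on the strand of its gene.
Slc25a11 promoter, chr11:70646990-70647289, minus strand: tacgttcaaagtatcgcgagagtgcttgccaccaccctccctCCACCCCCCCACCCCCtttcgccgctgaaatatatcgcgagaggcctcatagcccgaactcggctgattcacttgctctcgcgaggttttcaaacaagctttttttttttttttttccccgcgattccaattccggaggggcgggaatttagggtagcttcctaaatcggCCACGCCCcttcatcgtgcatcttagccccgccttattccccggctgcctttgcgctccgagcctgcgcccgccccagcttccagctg
Slc25a29 promoter, chr12:108835827-108836126, minus strand: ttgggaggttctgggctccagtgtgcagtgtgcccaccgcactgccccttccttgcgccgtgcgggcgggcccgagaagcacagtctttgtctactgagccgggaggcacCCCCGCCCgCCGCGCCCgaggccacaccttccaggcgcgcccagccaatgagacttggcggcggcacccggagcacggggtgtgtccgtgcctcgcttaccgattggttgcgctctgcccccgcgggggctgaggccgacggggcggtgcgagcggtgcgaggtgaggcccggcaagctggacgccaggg
Slc25a22 promoter, chr7:141435326-141435625, minus strand: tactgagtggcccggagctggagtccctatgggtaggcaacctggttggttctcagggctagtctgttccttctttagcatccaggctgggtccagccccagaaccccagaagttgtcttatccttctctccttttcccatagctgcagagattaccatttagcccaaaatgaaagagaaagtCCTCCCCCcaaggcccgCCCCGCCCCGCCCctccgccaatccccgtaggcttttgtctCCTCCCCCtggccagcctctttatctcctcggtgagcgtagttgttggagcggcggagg
Slc25a40 promoter, chr5:8422588-8422887, plus strand: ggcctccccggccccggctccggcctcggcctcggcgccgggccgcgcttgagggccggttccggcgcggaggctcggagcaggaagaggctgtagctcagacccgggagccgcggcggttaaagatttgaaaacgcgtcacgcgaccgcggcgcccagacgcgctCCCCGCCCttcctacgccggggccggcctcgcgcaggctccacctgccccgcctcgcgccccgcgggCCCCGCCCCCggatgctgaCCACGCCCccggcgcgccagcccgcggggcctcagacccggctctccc

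Of the 44 promoter entries of the carriers, 12 had the start under a region of either list, against 4289 of the 21045 promoters of all genes. A gene with several starts has several entries. The split of covered starts by list is not given here over all genes. The start lay under a WT region alone at 6 carriers and under a Nan/+ region alone at 2. The widest cases are shown: Slc25a28 and Slc25a12 for WT, and Slc25a15 for Nan/+, the last chosen after its values were seen.
Slc25a28 promoter, chr19:43674832-43675131, minus strand: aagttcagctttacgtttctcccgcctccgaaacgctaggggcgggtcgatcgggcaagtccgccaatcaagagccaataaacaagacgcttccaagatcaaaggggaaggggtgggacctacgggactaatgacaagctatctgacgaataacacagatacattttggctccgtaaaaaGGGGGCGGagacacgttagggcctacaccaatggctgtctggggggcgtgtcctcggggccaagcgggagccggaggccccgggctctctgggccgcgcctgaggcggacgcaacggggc
Slc25a12 promoter, chr2:71367706-71368005, minus strand: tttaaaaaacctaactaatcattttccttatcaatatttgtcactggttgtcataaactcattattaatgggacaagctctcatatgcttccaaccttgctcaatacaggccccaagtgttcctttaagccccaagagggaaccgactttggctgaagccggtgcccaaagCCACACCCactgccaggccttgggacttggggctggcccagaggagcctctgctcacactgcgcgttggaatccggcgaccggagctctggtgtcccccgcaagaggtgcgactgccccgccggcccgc
Slc25a15 promoter, chr8:22398572-22398871, minus strand: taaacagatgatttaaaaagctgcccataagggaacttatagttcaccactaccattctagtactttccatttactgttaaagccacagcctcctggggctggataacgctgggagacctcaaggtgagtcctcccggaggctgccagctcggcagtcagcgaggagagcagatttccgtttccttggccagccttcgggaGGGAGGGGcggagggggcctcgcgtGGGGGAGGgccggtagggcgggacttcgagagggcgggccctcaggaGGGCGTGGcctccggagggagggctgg

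Slc25a11, Slc25a22 and Slc25a40 each held 4 matches to CCNCNCCC in these windows, Slc25a15 held 3, Slc25a29 held 2, and Slc25a28 and Slc25a12 held 1 each. At Slc25a29 and Slc25a22 every match lay inside the region of both lists, and at Slc25a40 3 of the 4 did. At Slc25a11 the WT region covered all 300 bases with the 4 matches, whereas the Nan/+ region reached only 64 bases of the window, at its downstream end, and held none of them. At Slc25a12 and Slc25a28 the match lay inside the WT region, and at Slc25a15 all 3 lay inside the Nan/+ region. These matches describe letters and do not mark sites of binding.

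The pattern is common. It was in 57.1% of the 21045 promoters of all genes and in 32 of 44 promoter entries of the carriers (72.7%), where a gene with several starts has several entries and overlapping entries of 1 gene share sequence. Among carriers, 12 of 12 entries whose start lay under a region held it, against 20 of 32 entries under no region (62.5%). Over all genes the same shares were 76.0% and 52.3%. Promoters under a region were also richer in CpG: the median was 24 CpG in carrier entries under a region and 14.5 in the others, and 24 and 9 over all genes. The part of base composition in the motif counts was not tested.

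The fully spelled forms were rarer, and their shares differed from form to form. CCACGCCC was in 8 carrier entries (18.2%) against 7.04% of all promoters, and CCACACCC was in 5 (11.4%) against 3.64%. CCACGCCC was in 4 of the 12 carrier entries under a region (33.3%) and 4 of the 32 under none (12.5%). Over all genes its shares were 14.5% and 5.11%. CCACACCC was in 1 of the 12 (8.33%) and 4 of the 32 (12.5%). The 2 entries of Slc25a23, both under no region, hold the same CCACGCCC site. Whether these 2 forms go with EKLF regions at the carriers was not tested. CCCCACCC was in 5 (11.4%) against 11.1%, and CCCCGCCC, which also fits the binding pattern of the widely expressed factor Sp1, was in 15 (34.1%) against 23.8%. The GATA-factor letters GATAA, searched on both strands, were in 9 carrier entries (20.5%) against 22.5% of all promoters, and in 4 of the 12 entries under a region (33.3%) and 5 of the 32 under none (15.6%). Over all genes these shares were 13.9% under a region and 24.7% under none. The longer forms AGATAA and TGATAA, which contain GATAA, were in 3 entries each (6.82%), against 9.68% and 7.51% of all promoters.

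EKLF regions were found at 28 of the 44 carriers in 1 list or both. In the WT list 20 carriers had a region, which is 45.5% (95% interval 30.4 to 61.2, exact Clopper-Pearson, counting error only), against 33.5% of all protein-coding genes and 36.1% of other genes of like length. In the Nan/+ list 22 had a region, 50.0% (34.6 to 65.4), against 37.5% of all genes and 38.9% at like length. Both shares lay above the background, and both intervals held the like-length share, so with 44 genes the excess was within counting error. The comparison at like length was made because the share of genes with a region differed by length (24.6% in WT under 10 kb and 38.0% at 50 kb or more, 24.0% and 53.8% in Nan/+). The carriers had a median length of 22.0 kb (1.35 to 485), and all genes 17.4 kb.

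By list, 14 carriers had regions in both (31.8%, 18.6 to 47.6), against 23.5% of all genes and 24.6% at like length. Another 6 had regions in WT alone (13.6%), against 10.1% of all genes and 11.5% at like length. A further 8 had regions in Nan/+ alone (18.2%), against 14.1% and 14.3%. The remaining 16 had none (36.4%, 22.4 to 52.2), against 52.4% and 49.6%. Carriers with more WT than Nan/+ regions numbered 9 (20.5%), against 15.2% of all genes and 17.1% at like length, and those with more Nan/+ than WT regions numbered 13 (29.5%), against 23.0% and 22.7%. The longer Nan/+ list reached more carriers than the WT list, as among all genes, but this order depended on the settings. With 50 kb flanks 31 carriers had a WT region and 28 a Nan/+ region (70.5% and 63.6%, against 50.0% and 57.3% of all genes). With regions wider than the Nan/+ minimum width alone, 19 and 15 carriers had one (43.2% and 34.1%, against 32.3% and 25.1%). Only the second turn was thus seen over all genes.

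**Figure D1:**
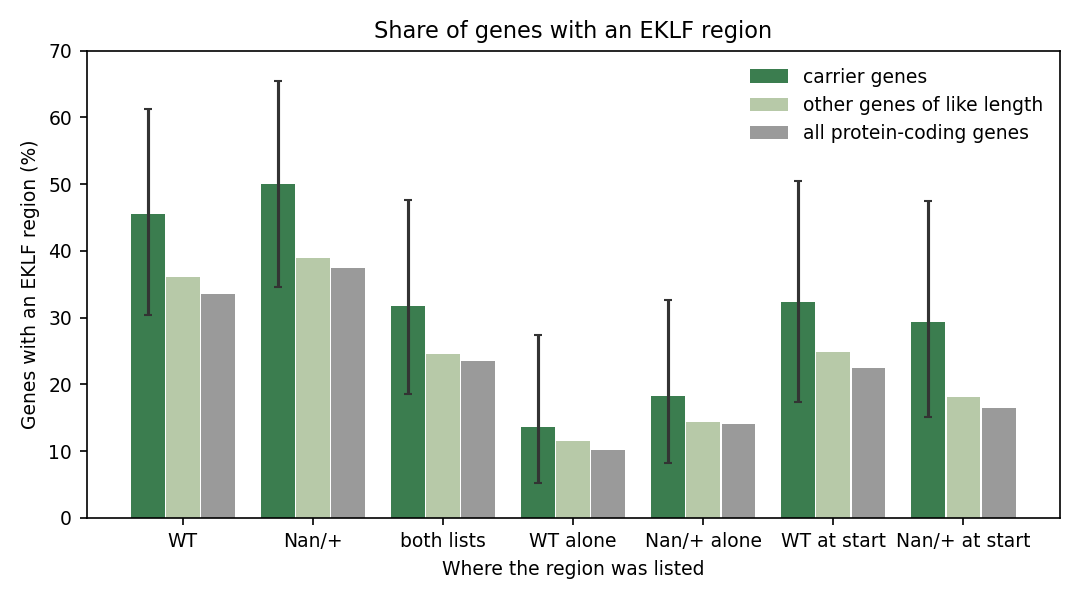
Share of genes with an EKLF region (percent, vertical axis) by list or position (horizontal axis) for the 44 carriers, other genes of like length and all protein-coding genes; the 2 groups at the right count only regions centred within 1 kb of a start, over the 34 carriers with a promoter entry. Error bars are exact 95% binomial intervals of the carrier shares; carrier bars stand above the other bars in each group, and each error bar reaches down past the like-length bar.

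Shared regions and gene starts showed a difference of the same direction. A region that overlapped one of the other list lay at 11 of 44 carriers, 25.0% (13.2 to 40.3), against 13.3% of all genes and 14.3% at like length. At gene starts, a WT region was centred within 1 kb at 11 of the 34 carriers with a start in the table, 32.4% (17.4 to 50.5), against 22.4% of all genes and 24.8% at like length. A Nan/+ region was so placed at 10, 29.4% (15.1 to 47.5), against 16.4% and 18.1%. Starts near a region in both lists numbered 6 (17.6%), against 9.97% of all genes and 11.0% at like length. Starts near a WT region alone numbered 5 (14.7%), against 12.4% and 13.8%, and near a Nan/+ region alone 4 (11.8%), against 6.44% and 7.08%. The 3 intervals given here all held the like-length share.

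The regions were spread thinly over most carriers. In WT, 14 carriers had 1 region, 3 had 2 and 3 had 3 or more, and in Nan/+ these numbers were 15, 5 and 2. The carriers together held 36 WT regions, of which 15 lay in gene bodies and 21 in flanks, and 40 Nan/+ regions, of which 25 lay in bodies and 15 in flanks. Slc25a21 alone accounted for 9 of the WT regions and 11 of the Nan/+ regions, and the others held 27 and 29. Of 14 carriers under 10 kb 7 had a region in WT (50.0%) and 8 in Nan/+ (57.1%), against 24.6% and 24.0% of all genes of that length. No interval was computed for these small length classes. Among the carriers under 10 kb, every region of Slc25a41 and Slc25a45 lay in a flank and nearer to another gene. Longer carriers were near the background. Of 25 carriers from 10 to 50 kb 11 had one in each list (44.0%), against 38.7% of such genes in WT and 40.2% in Nan/+. Of 5 carriers of 50 kb or more 2 had one in WT (40.0%) and 3 in Nan/+ (60.0%), against 38.0% and 53.8%.

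**Figure D2:**
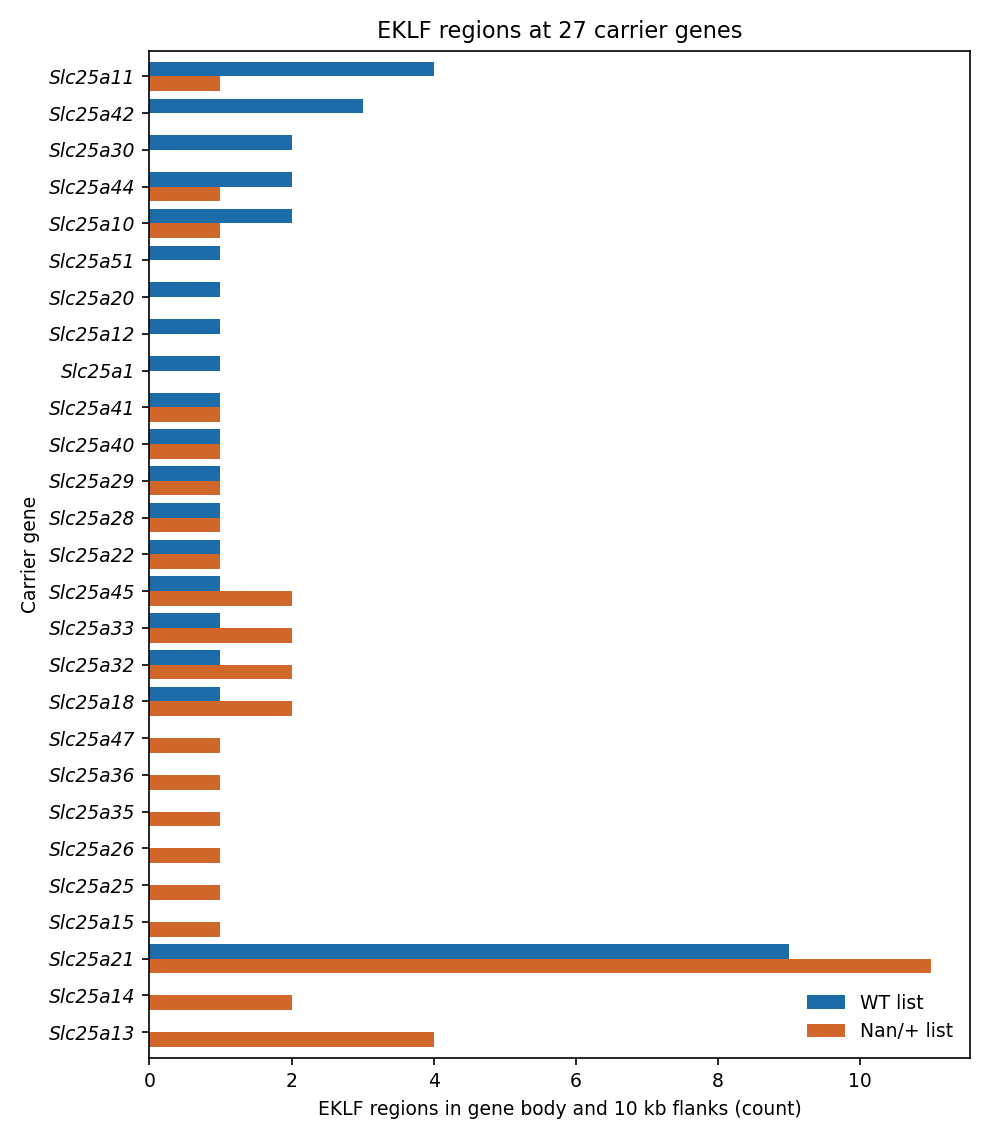
Number of EKLF regions in the gene body and 10 kb flanks (horizontal axis) at 27 of the 28 carriers with any (vertical axis), ordered by the excess of WT over Nan/+ regions, with WT in blue and Nan/+ in orange. Slc25a21 stands apart with 9 and 11 regions, and no other carrier has more than 4 in a list.

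All 4 carriers of dicarboxylates and tricarboxylates had regions in WT and 3 of 4 in Nan/+ (75.0%), against 33.5% and 37.5% of all genes. They held 16 WT and 13 Nan/+ regions, most of them at the 485 kb gene Slc25a21, and without it 7 and 2. Slc25a1, the citrate carrier that exports citrate for lipid synthesis, had a single WT region of 292 bp (chr16:17921885-17922176), 6188 bp downstream of its start and 3180 bp past the gene's far end, and no Nan/+ region. Slc25a10, the dicarboxylate carrier, had a WT region of 384 bp over its start (chr11:120491700-120492083, centred at 54 bp), with no Nan/+ region there. Its other regions, 737 bp in WT and 325 bp in Nan/+, overlapped each other but lay about the neighbouring genes Mrpl12 and Hgs, at -7222 and -7660 bp from its start. Here and below a minus sign means upstream of the start.

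Slc25a11, the oxoglutarate carrier of the malate-aspartate shuttle, had 4 WT regions and 1 Nan/+ region. The WT region at its start was 1032 bp wide (chr11:70646661-70647692), and it overlapped the Nan/+ region of 400 bp (chr11:70646654-70647053). The start of Rnf167 lay within 1 kb of the same WT region. The other 3 WT regions, of 288, 460 and 398 bp, were nearer to neighbouring genes, in an interval where Gp1ba, Pfn1 and Eno3 also lie. Why the WT list held more regions there than the Nan/+ list was not tested.

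Slc25a21, the oxodicarboxylate carrier that takes part in lysine breakdown, is the longest of the 44 at 485 kb (chr12:56712634-57197472, minus strand). Its 9 WT regions and 11 Nan/+ regions had 1 place in common, just upstream of its outer start: chr12:57197639-57198040 in WT (402 bp, -368 bp) and chr12:57197719-57198036 in Nan/+ (318 bp, -406 bp). The remaining regions were laid out differently in the lists. In WT, 5 regions lay within 10 kb of the outer start and 4 deeper in the gene, the farthest at 241 kb. In Nan/+, 1 lay within 10 kb and 10 deeper, the farthest at 149 kb, and 8 of the 11 had the minimum width. Over all genes the lists differed in the same direction, with 52.6% of WT and 25.1% of Nan/+ regions within 1 kb of a start. There 51.9% of Nan/+ regions had the minimum width. The layout at Slc25a21 is thus not shown to be particular to this gene, and the calling settings of the lists differ. A second start of the gene lies 36.8 kb inside, with Nan/+ regions of minimum width on both sides of it and the widest WT region of the gene (514 bp) 30.6 kb from the outer start.

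**Figure D3:**
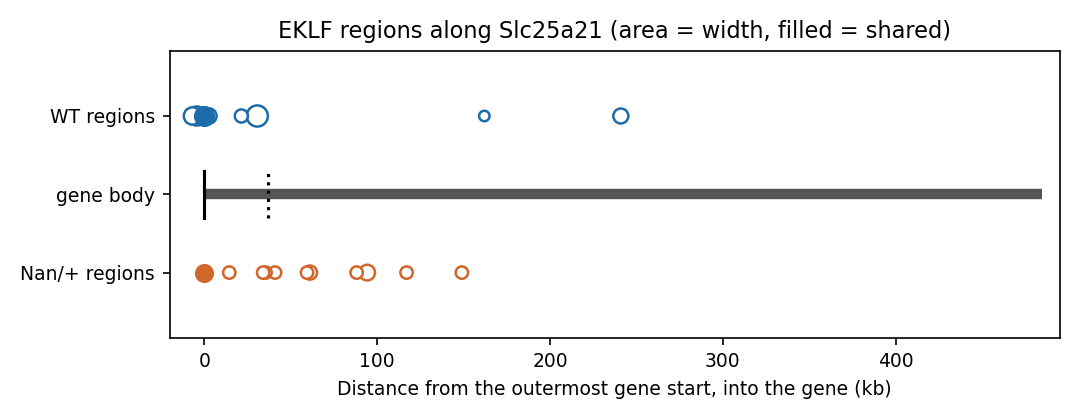
EKLF regions along Slc25a21 by distance from its outermost start into the gene (kb, horizontal axis), WT above and Nan/+ below the gene body; circle area follows region width, filled circles are shared regions, and the dotted tick marks the second start. WT regions gather at the outer start and reach 241 kb, and Nan/+ regions lie mostly deeper, up to 149 kb. Over all genes, too, a larger share of WT than of Nan/+ regions lay within 1 kb of a start.

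Of the 8 amino acid carriers 5 had regions in WT (62.5%) and 6 in Nan/+ (75.0%), against 33.5% and 37.5% of all genes. They held 6 WT and 10 Nan/+ regions. Slc25a22, a glutamate carrier, had a shared region over a start in both lists, 392 bp in WT (chr7:141435130-141435521) and 451 bp in Nan/+ (chr7:141435091-141435541). Slc25a29, a carrier of basic amino acids, had a 973 bp WT region (chr12:108835308-108836280) that overlapped a 444 bp Nan/+ region (chr12:108835660-108836103), both over its start. These 2 carriers had no other region in either list. Both regions rank among the 5 widest at carriers in the Nan/+ list, and the one at Slc25a29 does so in WT too.

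The aspartate-glutamate carriers, a pair of paralogues that supply aspartate to the cytosol, differed from each other. Slc25a12 (aralar) had a 937 bp WT region over its start (chr2:71367377-71368313, centred at -90 bp) and no Nan/+ region. Slc25a13 (citrin) had no WT region and 4 Nan/+ regions, all of the minimum width of 176 bp and between 42996 and 154426 bp inside from its start. Slc25a15, the ornithine carrier of the urea cycle, had a 426 bp Nan/+ region over its start (chr8:22398392-22398817, centred at 16 bp) and no WT region. It was the widest region at any of the 8 carriers with regions in Nan/+ alone.

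Slc25a18, a glutamate carrier, had 1 WT region and 2 Nan/+ regions, none of them shared. The 321 bp WT region (chr6:120786071-120786391) and a minimum-width Nan/+ region (chr6:120786820-120786995) lay close together in the gene body without overlapping. Slc25a44, a carrier of branched-chain amino acids whose start is not in the promoter table, had a 632 bp WT region at the start of its neighbour Pmf1, a 370 bp WT region centred 98 bp outside a gene end, and a 223 bp Nan/+ region in its body. Slc25a2, another ornithine carrier, had none in either list.

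Slc25a20, which brings acylcarnitines into the matrix for fatty acid oxidation, had an 824 bp WT region over its start (chr9:108661829-108662652, centred at 104 bp) and no Nan/+ region. Among the 5 carriers of phosphate and ATP-Mg, 1 had a region in WT (20.0%) and 2 in Nan/+ (40.0%), against 33.5% and 37.5% of all genes. Slc25a41 had a shared region of 897 bp in WT and 778 bp in Nan/+ (chr17:57031430-57032207), the widest Nan/+ region at any carrier, but both lay at the start of the neighbouring gene Khsrp. Slc25a25 had a 240 bp Nan/+ region at -360 bp (chr2:32451711-32451950), nearer to the gene Naif1, and no WT region. The phosphate carrier Slc25a3 and the ATP-Mg carriers Slc25a23 and Slc25a24 had none. The adenine nucleotide translocases, which export ATP from the matrix, had none either: Slc25a4, Slc25a5 and Slc25a31 were all at 0 in both lists. Of all genes, 52.4% had no region in either list.

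Among the 10 carriers of cofactors, nucleotides and glutathione, 6 had regions in WT and 6 in Nan/+ (60.0% each), against 33.5% and 37.5% of all genes, with 8 regions in each list. Slc25a40, a mitochondrial glutathione importer and close relative of Slc25a39, had a shared region over its start, 330 bp in Nan/+ (chr5:8422758-8423087) and 126 bp in WT (chr5:8422793-8422918), the WT minimum width. The start of Dbf4 lay within 1 kb. Slc25a42, the coenzyme A carrier, had 3 WT regions and none in Nan/+. The widest, 820 bp, lay over its start (chr8:70212181-70213000), another of 328 bp was in the gene body, and the third, of 377 bp, was nearer to Tmem161a.

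Slc25a33 and Slc25a36 carry pyrimidine nucleotides. Slc25a33 had a 296 bp Nan/+ region over its start (chr4:149774131-149774426, centred at -12 bp) and another of 230 bp in its body, while its single WT region of 694 bp was nearer to Tmem201. Slc25a36 had a single Nan/+ region, of minimum width, inside the gene. Slc25a51, the NAD carrier, had a 923 bp WT region 179 bp inside a gene end (chr4:45408277-45409199) and no Nan/+ region. The strand of Slc25a51 was not used here, so whether that end is its start is not stated.

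Slc25a32, which serves folate and flavin supply, had a shared region of 431 bp in WT and 289 bp in Nan/+ (chr15:39112653-39112941) just outside a gene end and close to Dcaf13, and a second Nan/+ region of minimum width in its body. Slc25a26, the carrier of S-adenosylmethionine, had a single Nan/+ region of minimum width. Slc25a16, and Slc25a17 of the peroxisome, had none.

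Slc25a28 (mitoferrin 2), the paralogue of the erythroid iron importer Slc25a37, had the widest WT region of any carrier, 1227 bp (chr19:43674831-43676057), which ran upstream from its start and was centred at -563 bp. The Nan/+ list held a region inside that interval, of the minimum width of 176 bp (chr19:43675394-43675569), centred at -600 bp and not over the start. Slc25a37 itself had 6 WT and 7 Nan/+ regions.

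Of the 3 carriers that resemble uncoupling proteins, 1 had regions in WT and 1 in Nan/+ (33.3% each), near the 33.5% and 37.5% of all genes. Slc25a30 had 2 in WT, of which 1 of 301 bp lay over its start (chr14:75786825-75787125) and the other was nearer to Cog3, and none in Nan/+. Slc25a14 had 2 in Nan/+, both of minimum width and not close to a start, and none in WT. Slc25a27 had none.

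Of the 9 carriers of the outer membrane or of little known substrate, 1 had a region in WT (11.1%) and 3 in Nan/+ (33.3%), the latter near the 37.5% of all genes and the former below their 33.5%. Slc25a45 had a shared region of 378 bp in WT and 328 bp in Nan/+ at the start of Tigd3, and a second Nan/+ region of 258 bp that was also nearer to Tigd3. Slc25a47 had a 291 bp Nan/+ region at -539 bp (chr12:108850445-108850735), and Slc25a35 a minimum-width Nan/+ region centred 8 bp outside a gene end (chr11:68968001-68968176). Slc25a46, an outer membrane protein involved in mitochondrial shape, had none, and nor had Slc25a34, Slc25a43, Slc25a48, Slc25a53 and Slc25a54.

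The shared regions of these carriers lay mostly close to a start. Carriers with a start in the table had 30 WT and 33 Nan/+ regions, of which 11 and 10 were centred within 1 kb of the carrier's own start. Over all genes 52.6% of WT and 25.1% of Nan/+ regions were near a start, counting the start of any gene that held the region. Of the 11 and 10 carrier regions near a start, 6 in each list were shared. Of the carrier regions farther away, 2 in each list were shared. Over all genes, where the start of any gene holding the region counted, 37.7% of WT regions within 1 kb of a start were shared. Farther away 13.8% were shared, and in Nan/+ the shares were 50.9% and 5.62%. The direction was the same, but the rules differ. In each list the 2 farther shared carrier regions lay within 1 kb of the start of another gene. These were Mrpl12 at Slc25a10 and Tigd3 at Slc25a45, and the rule for all genes counts such regions as near.

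**Figure D4:**
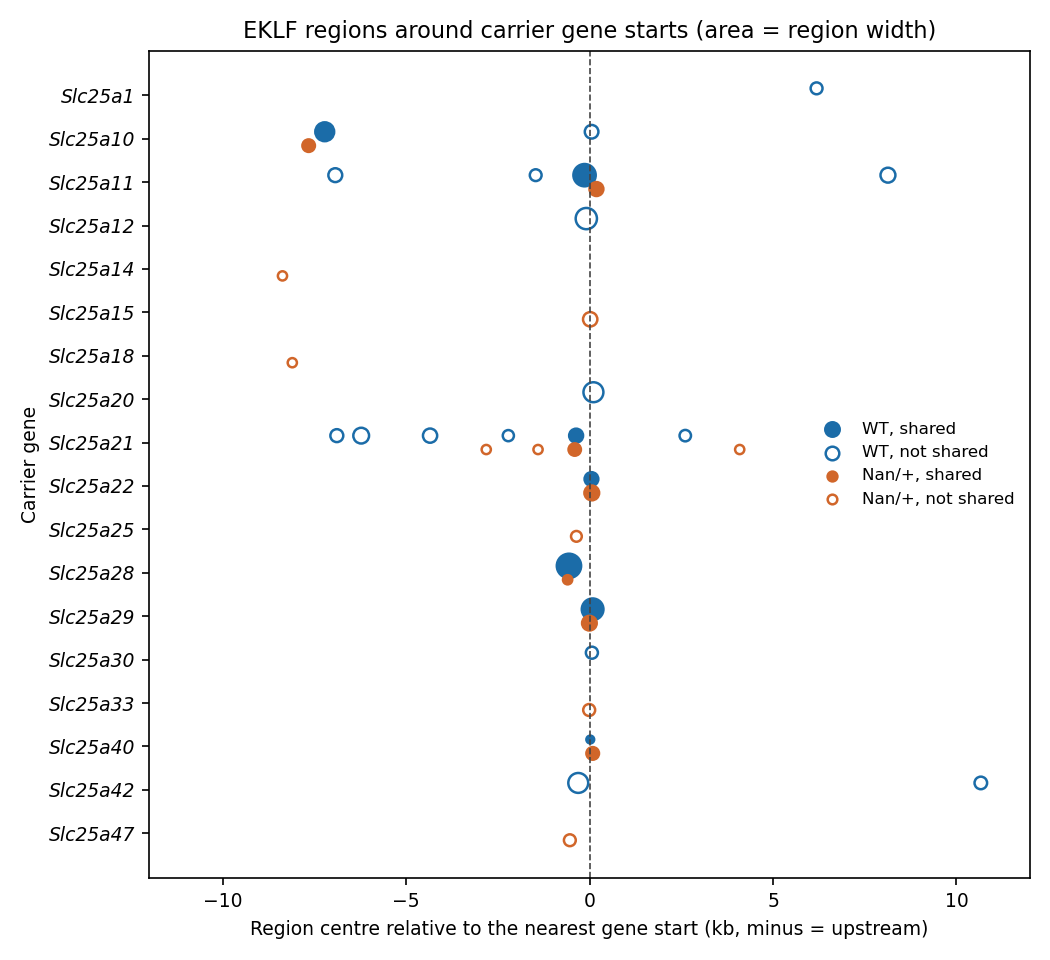
Regions within 12 kb of the nearest start (kb, horizontal axis; minus is upstream) at 18 carriers (vertical axis), 22 WT regions in blue and 16 Nan/+ regions in orange, with circle area following region width. Filled circles, the shared regions, stand close to the dashed line at the start, except the pair near -7 kb of Slc25a10.

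Shared regions and regions near starts also had the larger median widths. In WT the 11 shared regions at carriers had a median width of 737 bp and the others 377 bp. In Nan/+ the medians were 330 bp and 176 bp, again with 11 shared. An overlap of 1 bp was enough for sharing, which a wider region meets more easily, so this gap is partly built into the rule. Widths split by sharing are not given here over all genes. Regions within 1 kb of a start had a median of 820 bp in WT against 346 bp farther away, and of 324 bp in Nan/+ against 176 bp. Over all genes, counting the start of any holding gene, the medians within and beyond 1 kb were 485 and 338 bp in WT. In Nan/+ they were 314 and 176 bp. Of the 40 Nan/+ regions at carriers 21 had the minimum width (52.5%), which is close to the 51.9% of Nan/+ regions at all genes, and 12 of the 21 lay in Slc25a13 and Slc25a21. Of the 8 carriers with regions in Nan/+ alone, 5 had only minimum-width regions: Slc25a13, Slc25a14, Slc25a26, Slc25a35 and Slc25a36.

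**Figure D5:**
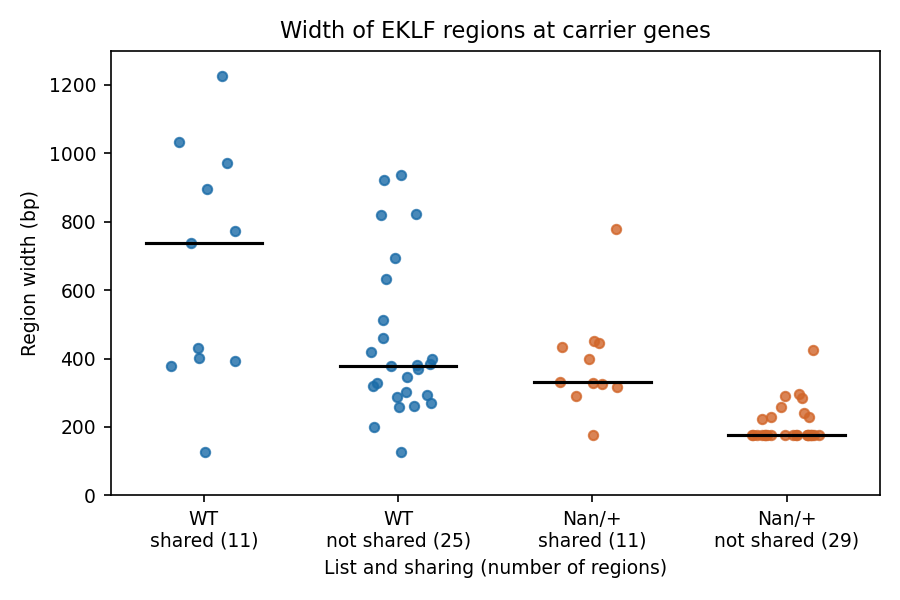
Width of each EKLF region at the carriers (bp, vertical axis) by list and by sharing (horizontal axis, number of regions in brackets); horizontal lines are medians. The medians are 737 and 377 bp in WT and 330 and 176 bp in Nan/+, where many unshared regions lie at the minimum width; the lists had different calling settings.

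Neighbouring genes touched many of these assignments. Another protein-coding gene was nearer than the carrier for 12 of 36 WT regions and 7 of 40 Nan/+ regions, and 11 and 6 lay within 1 kb of another gene's start. These counts were not made over all genes, so they are not shown to be particular to the carriers. Counting a region only for its nearest gene left 15 carriers with a region in WT (34.1%, against 25.2% of all genes). In Nan/+ it left 17 (38.6%, against 29.8%), and 8 carriers had regions in both lists. Of the 11 shared regions in each list, the carrier was the nearest gene for 6 in WT and 7 in Nan/+. The shared regions of Slc25a10, Slc25a41 and Slc25a45 were thus assigned by the 10 kb flank and lay nearer to other genes in both lists.

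Other mitochondrial transporters gave a frame for these counts. The 3 carriers left out held 14 WT and 9 Nan/+ regions: 6 and 7 at Slc25a37, 5 and 0 at Slc25a38, a glycine carrier of heme synthesis, and 3 and 2 at Slc25a39. Members of the same family under other names numbered 5, of which 3 had WT regions (60.0%) and 4 had Nan/+ regions (80.0%): Ucp2 had 3 in each list, Ucp3 had 4 and 1, Mtch2 had 2 in each, Mtch1 had 0 and 2, and Ucp1 had none. Of 18 further mitochondrial transporters and channels 8 had regions in WT (44.4%) and 13 in Nan/+ (72.2%), against 33.5% and 37.5% of all genes, and the 8 had them in both lists (44.4%, against 23.5%). Among those, Abcb10, which works with mitoferrin in erythroid iron import, had 11 WT and 6 Nan/+ regions, more WT regions than any of the 44 carriers, and the outer membrane channel Vdac2 had 3 and 2.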

How the data were processed

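EKLF was mapped by ChIP in 3 WT and 3 Nan/+ fetal liver samples. Per the file headers, the authors called regions with HOMER on mm10 from the 3 ChIP libraries of a genotype against inputs, with a q of 0.01, a fold of 4 and a DESeq2 step (false discovery rate 0.01, log2 fold 2). The peak size and minimum distance were 125 and 250 bp for WT and 175 and 300 bp for Nan/+. The 3 input places of a list held only 2 different libraries. Tools in the submitters' processing notes were deepTools 3.5, SAMtools 1.1, Bowtie2 2.1 and bcl2fastq 2.17. As deposited, the score was 1 throughout and was not used. ChIP libraries held 72023512 to 103170594 tags, per the file headers, and a list gives no depth for a region.

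Positions were counted from 1. Of 21900 protein-coding genes in the RefSeq table, 269 off chromosomes 1 to 19 and X and 110 on alternate or unlocalised sequence were left out. Starts and promoters came from the promoter table, which covered 17274 genes. Carriers not matched in it included Slc25a2, Slc25a26, Slc25a27, Slc25a32, Slc25a35, Slc25a41, Slc25a44, Slc25a46 and Slc25a51. Exons were not given, so positions inside genes are not split into exons and introns. The like-length share weights 10 length strata of the other genes to the carriers. Shares carry exact Clopper-Pearson intervals, which cover counting error only. Counting was tested on simulated lists. Python 3.11.15, pandas 2.3.3, NumPy 2.4.6, SciPy 1.17.1 and matplotlib 3.10.9 were used.

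Members, role groups and marker lists were chosen with earlier results of these data known. Every carrier was named once, except 1 that is counted in the totals and is not reported here by name or drawn in the plot of counts. Detail was given for those with a region within 1 kb of a start or gene end, the 5 with the most regions, the widest regions or the largest excess in either direction, and Slc25a28. Promoters were printed for up to 6 carriers with the start under a region, widest first, plus Slc25a15. Alternatives covered the window, nearest-gene assignment, region width, merging, the overlap rule, length matching, the distance from the start and the promoters searched.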

Additional observations from a re-analysis of the deposited data

How the results depend on the processing

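Of 55 values recomputed under alternatives for 14 results, 40 stayed within 1.5 times the count or close to the share given in the report and 15 moved further. With the gene body alone, 11 carriers had a WT region (25.0%, against 18.1% of all genes) and 13 a Nan/+ region (29.5%, against 23.5%). There 5 carriers had both, with 15 WT and 25 Nan/+ regions. With 50 kb flanks, 31 had a WT region, 28 a Nan/+ region and 22 both, with 78 WT and 87 Nan/+ regions. The order of the lists thus turned, which it did not over all genes (50.0% in WT and 57.3% in Nan/+). Counting a region for its nearest gene only left 8 carriers with both. With regions wider than the Nan/+ minimum alone, 4 carriers had a Nan/+ region only and 19 Nan/+ regions remained. The order turned as well, with 19 carriers in WT and 15 in Nan/+, and it turned over all genes too (32.3% and 25.1%). Requiring a reciprocal overlap of 50% left 6 shared regions in WT and 6 in Nan/+. CCNCNCCC was in 100% of carrier promoters with a region over the start. No paired analysis was possible because the 3 ChIP libraries of a genotype were combined in 1 list, and for the same reason no replicate could be left out. The calling settings differ between the lists, so counts of regions and of genes in 1 list alone cannot be told apart from those settings.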
